A study of Sus scrofa with 88 samples.

Results

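Loin muscle RNA from littermates that differed in loin muscle area (LMA) was compared on 48 of the 88 2-color arrays of the series. These are the arrays whose labels give one pig of the pair as LMA high and the other as LMA low. They hold 96 F2 pigs of a Duroc x Pietrain cross from 24 litters, with 1 male and 1 female pair from each litter, and the other 40 arrays hold pairs chosen for backfat depth (BF). Within a litter, the extreme males and the extreme females for the trait were taken, so each array set an LMA high pig against an LMA low pig of the same sex and the same parents. The labels give the rank of a pig in its litter, not its measured area or its age, so the size of the difference in muscle between the pigs of a pair was not known here.

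Loin muscle area is the cross-section of the longissimus dorsi, the long muscle of the back, and stands for the lean mass of the carcass. Muscle grows after birth by enlargement of the fibers formed before birth. Fibers differ in their myosin and in how far they rely on oxidation, and fat cells, vessels, nerves and blood cells lie between them. Whole tissue was extracted, so a smaller share of a cell type and less RNA per cell cannot be told apart in these ratios.

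The measured value is the log2 ratio of the pigs of a pair at each of 20736 spots. The sources used here do not state which pig is the numerator. As deposited, the mean ratios of the 24 LMA arrays with the high pig on Cy5 and of the 24 with the high pig on Cy3 had a correlation of -0.855 across spots, and the values were written with up to 6 digits on the arrays with Cy5 and with up to 10 digits on those with Cy3. Every array was therefore taken to set high and low pigs in the same order, with the order itself unknown. A positive ratio below means more RNA in the numerator pig, which may be the high or the low one, and all signs would turn together. The dye was balanced over high and low pigs, and in every litter the high male and the high female carried opposite dyes.

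A gene symbol was known for 178 spots (175 genes), and 20558 spots had none. Within an array, the ratios had an SD from 0.177 to 0.66 in male pairs (median 0.222) and from 0.178 to 0.559 in female pairs (median 0.223). An SD above 0.4 was found on 4 arrays, the male pair of litter 56 (0.66) and the female pairs of litters 12 (0.559), 32 (0.551) and 54 (0.451), while no BF array went above 0.352. They are called wide arrays below, and results that rest on them are given with and without them. Ratios between littermates hold no level, so the tissue could not be checked against its markers.

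No spot passed the test of high against low littermates. In limma with a dye term and litter as a random block, 0 of 20736 spots (0%) had a Benjamini-Hochberg adjusted p under 0.05, and the smallest adjusted p was 0.9996. An unadjusted p under 0.05 was found at 874 spots (4.21%), of which 458 had a positive and 416 a negative mean ratio. Among the named spots, 6 of 178 (3.37%) had an unadjusted p under 0.05, a share near that of all spots. The intervals of the mean ratio were narrow at most spots. The median half-width of the 95% interval of the mean log2 ratio was 0.039, and the interval lay within 0.1 of 0 at 77.3% of spots, within 0.2 at 95.4% and within 0.5 at 99.9%. For the named spots these shares were 77.5%, 96.6% and 100%. Whether a spot gave signal above background was not checked, and control spots are among those counted. A narrow interval around 0 is therefore not evidence that the RNA of a gene was measured and found equal. The most extreme mean ratios of any spot were -0.273 and 0.465.

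**Figure D1:**
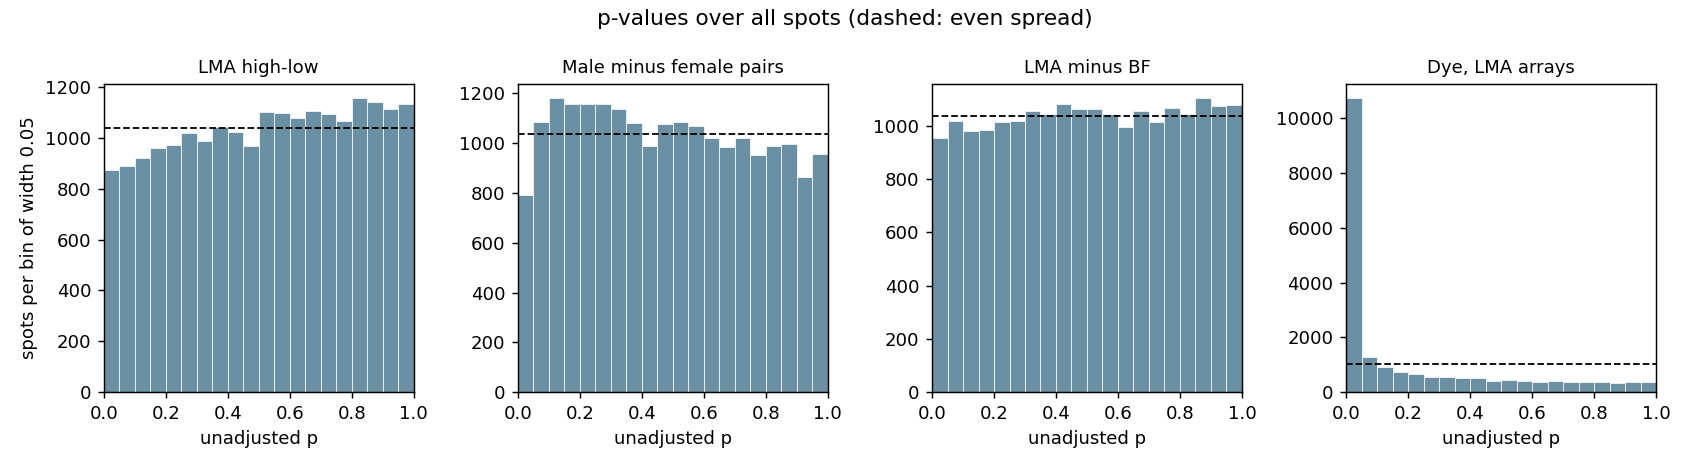
Number of spots (vertical axis) in each bin of unadjusted p of width 0.05 (horizontal axis) for LMA high against low, male minus female pairs, LMA minus BF and dye in the LMA arrays, over 20736 spots each. The lowest bin holds 874, 790, 953 and 10725 spots in these panels, and the dashed line is 1037, the height of an even spread.

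The genes grouped under muscle fiber, adhesion and membrane, after their values were seen, were MYH7, LMCD1, MYOD1, ITGB1 and CAV1. Of these, MYH7, LMCD1 and MYOD1 were on the muscle lists. MYH7 encodes the slow myosin heavy chain of oxidative fibers. Its log2 ratio in male pairs ran from -0.83 to 0.90 with a median of 0.02, and in female pairs from -0.70 to 1.04 with a median of 0.17. The ranges of male and female pairs overlapped almost wholly, and 15 of 24 litters had a positive mean over both pairs. The mean ratio of MYH7 over all LMA pairs was 0.114 ± 0.063 (SE, n = 48 arrays, 95% interval -0.012 to 0.241), with an unadjusted p of 0.0759 and an adjusted p of 0.9996 in limma. Male and female pairs gave means of 0.107 and 0.122.

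LMCD1, a LIM domain cofactor of transcription that is made in skeletal and heart muscle, had a mean ratio of 0.106 ± 0.148 (SE, n = 48), with an interval from -0.193 to 0.404. MYOD1, the transcription factor that commits cells to the muscle lineage, had a mean ratio of -0.008 (interval -0.166 to 0.149). The beta1 integrin ITGB1, which ties the fiber to its matrix, and CAV1, the main protein of caveolae in vessel and fat cells, had means of -0.117 (interval -0.305 to 0.071) and 0.058 (interval -0.085 to 0.201), and that of CAV1 was 0.023 without the wide arrays. None of these 5 spots had an unadjusted p under 0.05. The intervals of LMCD1, MYOD1 and ITGB1 were much wider than the median half-width of 0.039 over all spots, so a difference of 0.1 in these genes was not detectable with these pairs.

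Of the fat cell genes, PLIN1 stood among the smallest p-values of the named spots. It coats the lipid droplet of adipocytes and guards it against lipases. Its ratio ran from -0.21 to 0.30 in male pairs (median 0.05, 16 of 24 above 0) and from -0.30 to 0.83 in female pairs (median 0.00, 11 of 24 above 0). Both ranges spanned 0, and the highest value came from the female pair of litter 32, a wide array. The mean ratio of PLIN1 was 0.049 ± 0.023 (SE, n = 48, interval 0.004 to 0.095, unadjusted p = 0.035, adjusted p = 0.9996 in limma), and 18 of 24 litters had a positive mean. Without the 4 wide arrays the mean was 0.029 (unadjusted p = 0.131, adjusted p = 0.7902 in limma). The adipocyte genes RETN (resistin) and ADIG (adipogenin) had mean ratios of -0.002 and 0.035, and the leptin receptor LEPR one of 0.014, all with intervals that included 0. Over the 4 spots of this group the median mean ratio was 0.025, against -0.00044 over all spots, and 0 of 4 passed the test.

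Genes of oxidative metabolism gave mean ratios near 0. ACADS, the dehydrogenase that opens the oxidation of short fatty acids, had a mean of 0.014 (interval -0.077 to 0.105) and a range over the arrays from -1.08 to 0.66. ATP5G1, a ring subunit of the mitochondrial ATP synthase, had a mean of 0.025 (interval -0.084 to 0.135) and a range from -0.86 to 1.27. GOT1, the cytosolic aspartate aminotransferase of the malate shuttle, had a mean of 0.065 (interval -0.068 to 0.198). With QDPR, MAOA and UOX, 5 of the 6 spots grouped under energy and amine metabolism had a positive and 1 a negative mean, the median was 0.017 and 0 passed the test.

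RPN2, a subunit of the complex that attaches glycans to new proteins in the endoplasmic reticulum, had the largest mean ratio of the named spots. Its ratio ran from -2.02 to 0.59 in male pairs (median 0.15) and from -0.43 to 2.21 in female pairs (median 0.11). The lowest value was that of the male pair of litter 56 and the highest that of the female pair of litter 42, whose array was not among the wide ones. The mean ratio of RPN2 was 0.149 ± 0.082 (SE, n = 48, interval -0.016 to 0.315, unadjusted p = 0.0751, adjusted p = 0.9996 in limma), with 0.026 in male and 0.273 in female pairs, and their difference had an unadjusted p of 0.178. Without the male pair of litter 56, left out after seeing the data, the mean was 0.197 over all pairs (unadjusted p = 0.0074, adjusted p = 0.7452), 0.119 in male and 0.273 in female pairs. The positive ratios beyond 2-fold were those of the female pairs of litters 42 (2.21), 32 (2.01) and 5 (1.30). The mean over all pairs was not refitted without the female pairs of litters 42 and 5. Without the wide arrays it was 0.167 over all pairs (unadjusted p = 0.0109, adjusted p = 0.6079), 0.117 in male and 0.221 in female pairs. SCAMP1, a carrier protein of vesicles at the cell surface, had a mean of 0.035 (interval -0.006 to 0.076). Of the 10 spots for glycosylation and membrane traffic, 8 had a positive and 2 a negative mean, with a median of 0.011, and 0 passed.

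Among signal genes, GNAS, the alpha subunit of the stimulatory G protein, had a mean ratio of 0.082 (interval -0.017 to 0.182). Its range was from -0.59 to 0.58 in male pairs and from -0.82 to 1.82 in female pairs, with both ends among the female pairs on the wide arrays of litters 12 and 32. KCNA5, a voltage-gated potassium channel, ran from -0.46 to 0.37 in male pairs (12 of 24 above 0) and from -0.67 to 0.25 in female pairs (3 of 24 above 0). Male and female values of KCNA5 overlapped over most of their range. The mean ratio over all pairs was -0.052 (interval -0.102 to -0.002, unadjusted p = 0.0416, adjusted p = 0.9996 in limma), made up of 0.001 in male and -0.104 in female pairs, and the difference between the sexes had an unadjusted p of 0.0543. The lowest value of KCNA5 came from the female pair of litter 32 and the highest from the male pair of litter 56, both wide arrays. Without the wide arrays the mean of KCNA5 was -0.036 (unadjusted p = 0.0698, adjusted p = 0.7223 in limma). Its means by sex are not given without them. JUN, a subunit of the AP-1 factor, had a mean of 0.003 (interval -0.127 to 0.133) and a range from -1.57 to 1.59.

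NPG4 encodes a protegrin, a small antimicrobial peptide of porcine leukocytes. Its ratio ran from -1.40 to 0.19 in male pairs (median -0.04, 8 of 24 above 0) and from -0.20 to 0.17 in female pairs (median -0.06, 7 of 24 above 0). A single array, the male pair of litter 56, gave the value of -1.40, and without the wide arrays the lowest value was -0.22. The mean ratio of NPG4 was -0.066 ± 0.028 (SE, n = 48, unadjusted p = 0.0241, adjusted p = 0.9996 in limma) on all arrays. Without the 4 wide arrays the mean was -0.036 (unadjusted p = 0.00886, adjusted p = 0.5949 in limma). The related antimicrobial peptide PR39 had a mean of 0.037 (interval -0.067 to 0.141), and PI3 (elafin), a protease inhibitor of epithelia, one of -0.056 (interval -0.127 to 0.014), with 1 female pair, that of litter 79, at -1.48. Without that pair the mean of PI3 was -0.025. Of the 14 innate defense spots, 5 had a positive and 9 a negative mean, the median was -0.0027 and 0 passed.

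Genes of lymphocytes and their signals had mean ratios close to 0. TNFSF4, a ligand that costimulates T cells, had a mean ratio of 0.015 ± 0.007 (SE, n = 48), an unadjusted p of 0.0497 and a range from -0.14 to 0.19. Without the wide arrays the mean of TNFSF4 was 0.01 (unadjusted p = 0.159 in limma). The T cell coreceptor CD4, the growth factor IL2, the immunoproteasome subunit PSMB8 and the adaptor TYROBP had means of -0.011, -0.005, 0.010 and -0.018, all with intervals that included 0. PDCD1LG2, a ligand of the inhibitory receptor PD-1, had a mean of 0.015 (interval -0.004 to 0.034). Among the 20 spots for cytokines, chemokines and their receptors the median was -0.0052 and the means ran from -0.03 to 0.03, and among the 9 for lymphocytes and antigen presentation the median was -0.0065. In both groups 0 spots passed.

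The smallest p-values among all named spots belonged to genes known from other tissues. ARR3, the arrestin of cone photoreceptors, ran from -0.15 to 0.09 in male pairs and from -0.12 to 0.05 in female pairs, and its mean was -0.022 ± 0.008 (SE, n = 48, unadjusted p = 0.00612). NPW, the neuropeptide W precursor, ran from -0.10 to 0.09 in male pairs and from -0.20 to 0.07 in female pairs, with a mean of -0.025 ± 0.009 (unadjusted p = 0.00723). The ratios of ARR3 and NPW therefore stayed between -0.20 and 0.09 on every LMA array, and the residual SD of ARR3, 0.05, was above that of 1.21% of spots only. ELSPBP1, a sperm-binding protein of the epididymis, HYAL3, a hyaluronidase, and DCT, a melanin enzyme, had means of -0.017, -0.023 and 0.016, all with intervals that included 0. Over the 14 sperm, egg and testis spots the means ran from -0.02 to 0.02 and 0 passed.

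**Figure D2:**
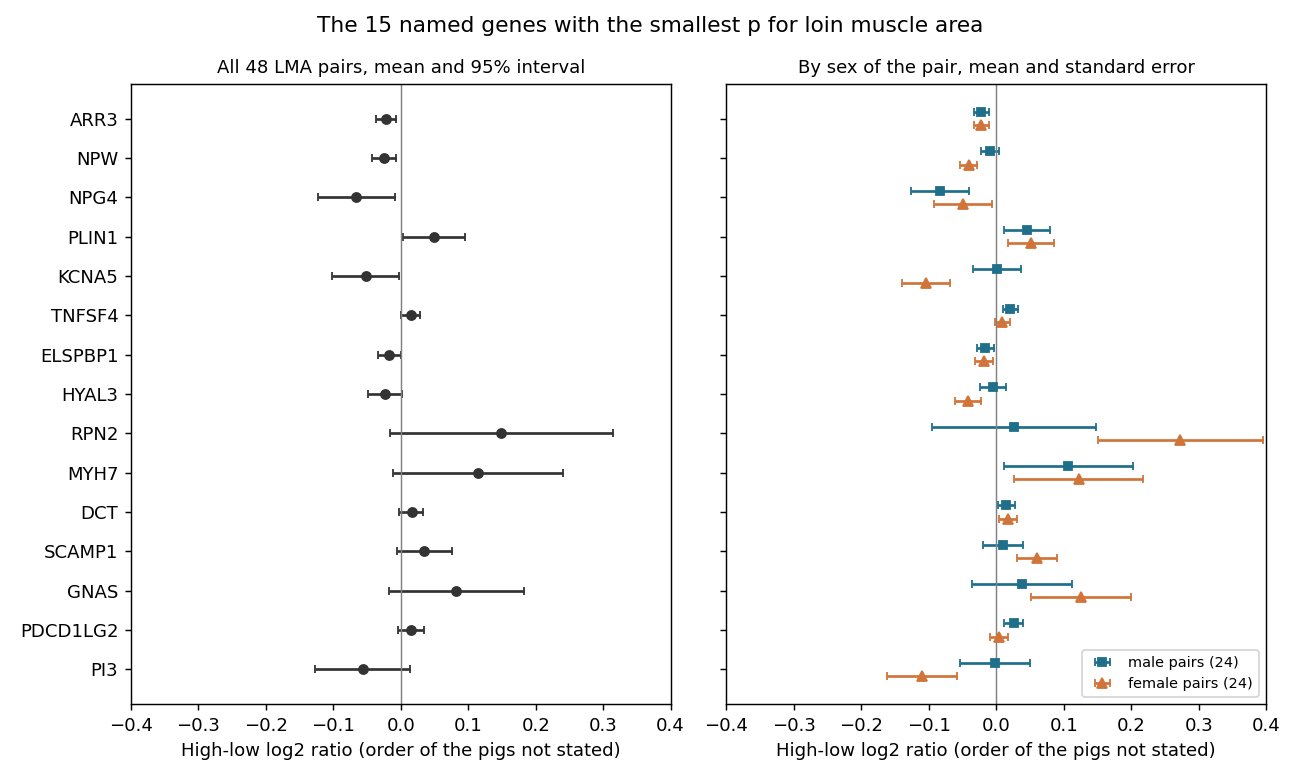
Mean log2 ratio of LMA high and low littermates (horizontal axis, numerator not stated) for the 15 named genes with the smallest p: on the left over 48 pairs with the 95% interval, on the right in 24 male and 24 female pairs with the standard error. The intervals of ARR3, NPW, NPG4, PLIN1 and KCNA5 lie to one side of 0, that of TNFSF4 starts at 0, and those of RPN2 and MYH7 are the widest.

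Hormone genes linked to growth gave no call either. GHRL (ghrelin) and SSTR2, a receptor of somatostatin, which act on the release of growth hormone, had mean ratios of 0.004 (interval -0.010 to 0.017) and -0.003 (interval -0.065 to 0.060). INHA, the inhibin alpha subunit, had a mean of -0.046 (interval -0.193 to 0.101), which was -0.017 without the male pair of litter 56 and -0.018 without the wide arrays. The embryonic globin HBE1 had a mean of 0.004, and the pigment genes OCA2 and MC1R had means of 0.127 (interval -0.111 to 0.365) and -0.034 (interval -0.146 to 0.079). ASIP, the agouti signal that blocks the melanocortin receptor, was read by 4 spots with means from -0.028 to -0.010, none with an unadjusted p under 0.05. SRY, the Y-linked testis determinant, had a mean of 0.007 over all pairs, each of which held pigs of 1 sex. Of the 13 spots for hormones and neuropeptides, 3 had a positive and 10 a negative mean (median -0.0086), and of the 12 for receptors of hormones and transmitters, 5 had a positive and 7 a negative mean (median -0.0026), and 0 passed in either group. In all, 27 of the 185 genes on 25 lists of muscle, fat, immune, metabolic and marker genes had a named spot, spread over 19 lists, and 0 of them passed. The list of 4 genes with an eQTL over a loin muscle area QTL in the study had no named spot. Any spots of these genes among those without a symbol could not be told apart here.

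The spots with no symbol that had the smallest p-values were equally far from a call. Spots 20422 and 16887 had positive means of 0.035 ± 0.008 and 0.129 ± 0.033 (SE, n = 48), and spots 1049 and 10520 had negative means of -0.062 ± 0.014 and -0.068 ± 0.017. The unadjusted p-values of these 4 spots were 0.000165, 0.000288, 8.73e-05 and 0.000286, and their adjusted p was 0.9996 in limma. What these spots measure is not known here.

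The sexes were then set against each other, since each litter gave a male and a female pair. In male pairs alone 0 spots (0%) passed, with 602 (2.9%) at an unadjusted p under 0.05, and in female pairs alone 0 (0%) passed, with 1035 (4.99%). The difference between male and female pairs passed at 0 spots (0%), with 790 (3.81%) at an unadjusted p under 0.05, of which 533 (2.57%) were positive and 257 (1.24%) negative. Of the named spots, 12 of 178 (6.74%) had an unadjusted p under 0.05 for this difference, 11 positive and 1 negative, and 3 of the 4 wide arrays belonged to female pairs. The part of the wide arrays in this split was not tested.

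PRL, the pituitary hormone prolactin, had the smallest p of this contrast among the named spots. Its ratio ran from -1.01 to 1.77 in male pairs (median 0.16) and from -1.99 to 0.98 in female pairs (median 0.02). Male and female values overlapped from -1.01 to 0.98, and the lowest came from the wide array of the female pair of litter 32. The means were 0.172 in male and -0.232 in female pairs, and their difference was 0.404 ± 0.139 (SE, interval 0.124 to 0.684, unadjusted p = 0.00563, adjusted p = 0.9469 in limma), or 0.321 without the wide arrays. PRL also had the largest negative dye term of the named spots. PDZD11, a scaffold protein with a PDZ domain, was above 0 in 19 of 24 male and 11 of 24 female pairs, with a difference of 0.138 ± 0.053. RETN, with means of 0.028 in male and -0.031 in female pairs, GAD2, the glutamate decarboxylase of neurons and islets, with 0.070 and -0.124, and CALCRL, a receptor of vessels for adrenomedullin, with -0.027 and 0.019, had unadjusted p-values of 0.0191, 0.0234 and 0.0244. All 5 genes had an adjusted p of 0.9469. Without the wide arrays the differences of PDZD11, RETN, GAD2 and CALCRL were 0.174, 0.07, 0.147 and -0.047. On all arrays they were 0.138, 0.059, 0.194 and -0.045. Their unadjusted p-values without the wide arrays were 0.00214, 0.00265, 0.0652 and 0.0214, and the adjusted p of all 5 genes was 0.9954 in limma.

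Pairs chosen for LMA and pairs chosen for BF shared no pig, and the difference between their mean ratios was tested over all 88 arrays. It passed at 0 spots (0%), with 953 (4.6%) at an unadjusted p under 0.05, and 7 of the 178 named spots (3.93%) were among them. NPG4 had a mean of -0.066 in LMA and 0.018 in BF pairs, with a difference of -0.084 ± 0.036 (SE), or -0.055 without the wide arrays. SCAMP1 had means of 0.035 in LMA and -0.026 in BF pairs, with a difference of 0.062 ± 0.027. The largest of the named differences was that of JUN, with means of 0.003 in LMA and 0.223 in BF pairs and a difference of -0.219 ± 0.097 (interval -0.412 to -0.027, unadjusted p = 0.0261). PLIN1 had means of 0.049 in LMA and -0.007 in BF pairs, with a difference of 0.056, or 0.037 without the wide arrays (unadjusted p = 0.112), and BMP15, a growth factor of the oocyte, means of 0.008 and -0.019. The adjusted p of all 5 genes was 0.999 in limma. Without the wide arrays the differences of JUN, SCAMP1 and BMP15 were -0.239, 0.052 and 0.028, against -0.219, 0.062 and 0.028 on all arrays. The adjusted p-values of the 5 genes were then from 0.6466 to 0.8054 in limma.

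The dye term passed at far more spots than LMA rank on the same arrays. It passed at 9504 spots (45.8%), 4434 (21.4%) positive and 5070 (24.5%) negative, and at 102 of the 178 named spots (57.3%), 23 positive and 79 negative, where the sign depends on the unknown order of the ratio. GAL3ST2, a sulfotransferase of glycans, had the smallest adjusted p of the named spots (1.62e-13) with a dye term of -0.516 ± 0.044 (SE), and in dye order its ratio was above 0 on 1 of 48 arrays. PRL and the estrogen receptor ESR2 had dye terms of -0.632 and -0.591 and were above 0 on 3 and 1 arrays. ATP5G1, GNAS and PPP2R1A, a scaffold subunit of protein phosphatase 2A, had the largest positive terms, 0.197, 0.182 and 0.128, and were above 0 on 35, 35 and 33 arrays. The mean LMA ratios of these 6 genes lay between -0.030 (PRL) and 0.082 (GNAS).

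Single pairs differed by far more than the means over pairs, and in both directions. The spread of a spot was taken as the SD of its residuals after the dye and LMA terms. Its median was 0.14 over all spots and 0.17 over the named spots, and it was above 0.5 at 1147 spots (5.53%) and at 12 of the 178 named spots. A ratio beyond 2-fold was found on at least 1 LMA array for 48 of the 178 named spots (27%) and for 4550 of all spots (21.9%). Once the wide arrays were left out, these were 33 named spots (18.5%) and 2321 of all spots (11.2%).

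LMCD1 had the widest spread of the named spots, with a residual SD of 1.12 that lay above 99.7% of all spots. Its ratio ran from -2.53 to 1.79 in male pairs (median -0.13) and from -1.41 to 3.23 in female pairs (median 0.29). It went beyond 2-fold on 15 of 48 arrays, 10 times with a positive and 5 times with a negative sign. Of the 8 male pairs among them 4 were positive, and of the 7 female pairs 6 were, a difference that was not tested. The lowest value was that of the male pair of litter 56, and without the wide arrays the SD was 1.00 and the percentile 99.8. In the BF arrays, with other pigs, the SD of LMCD1 was 0.84, above 99.7% of spots. Its mean LMA ratio was 0.161 without the male pair of litter 56, with an adjusted p of 0.9952.

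OCA2, a melanosome membrane protein needed for pigment, came next with a residual SD of 0.87. Male pairs held both its extremes, from -2.90 in litter 56 to 2.80 in litter 78, whereas female pairs ran from -0.54 to 1.59. Of the 8 arrays beyond 2-fold, 7 held male and 1 a female pair, and 5 were positive and 3 negative. The difference in spread between the sexes was not tested. Without the wide arrays the lowest value was -1.97, the SD 0.78 and the mean LMA ratio 0.201, and in the BF arrays the SD was 0.72.

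ITGB1 (residual SD 0.70), RPN2 (0.61), MYOD1 (0.58), S100A11, a calcium-binding protein (0.57), INHA (0.55), FOLR1, a folate receptor (0.54), and CAV1 (0.53) followed, all above 95% of spots. For ITGB1 and RPN2 the male pair of litter 56 was the lowest array, at -2.44 and -2.02, and without it the mean LMA ratio of ITGB1 was -0.070. Without the wide arrays the SDs of these 7 genes were between 0.34 (FOLR1) and 0.59 (ITGB1), and in the BF arrays between 0.37 (CAV1) and 0.56 (INHA). CRP, an acute-phase protein of the liver, had an SD of 0.58 that rested on few pairs. Its ratios of 2.10 in a male pair and of 2.16 and -2.07 in female pairs were the only ones beyond 2-fold, and its SD was 0.24 in the BF arrays, above 81.1% of spots.

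**Figure D3:**
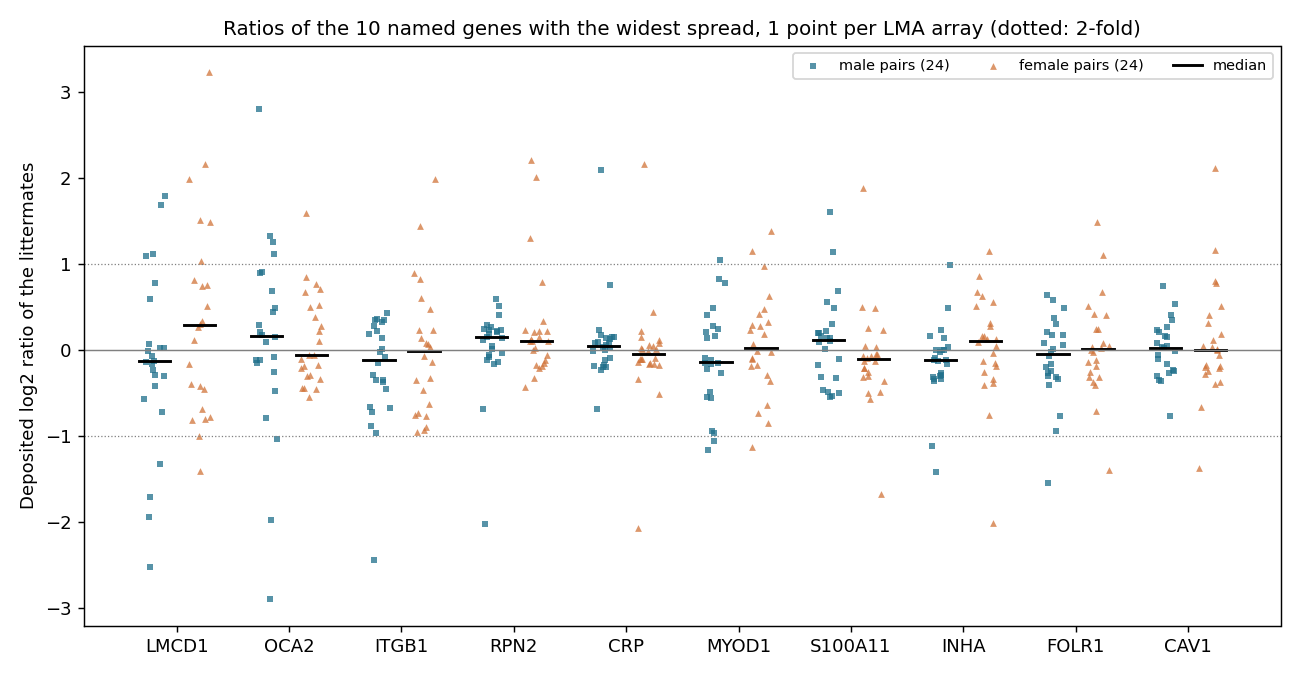
Deposited log2 ratio of the littermates (vertical axis) for the 10 named genes with the widest spread, with 1 point per LMA array, male pairs left of female pairs for each gene, bars at the medians and dotted lines at 2-fold. LMCD1 runs from -2.53 to 3.23 and OCA2 from -2.90 to 2.80, and medians stay within 0.3 of 0.

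Several of these genes moved together from pair to pair. Correlations were taken over the 48 LMA arrays on residuals after the dye and LMA terms, with 100000 permutations of the arrays and Benjamini-Hochberg adjustment over the 45 pairs of the 10 genes. LMCD1 and MYOD1 had the highest correlation, with Pearson's r = 0.73 (permutation p = 1e-05, the smallest these permutations can give, adjusted p = 6.43e-05) and Spearman's rho = 0.585 (permutation p = 4e-05). Pairs with a high ratio of LMCD1 tended to have a high ratio of the myogenic factor too. The correlation was 0.657 without the 2 arrays farthest out in LMCD1, 0.645 without the wide arrays and 0.65 in the BF arrays. The arrays of a litter were taken as exchangeable here although they share parents. The 10 genes were chosen for their spread on these same arrays. What share of all pairs of spots reaches 0.73 was not taken.

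In all, 22 of the 45 pairs had an adjusted permutation p under 0.05, and all 22 were positive, with r from 0.388 to 0.73. They were the 21 pairs among LMCD1, MYOD1, ITGB1, RPN2, INHA, FOLR1 and CAV1, and the pair of OCA2 and RPN2. A correlation of at least 0.388 was common on these arrays. It was found for 6.61% of all pairs of spots. Among the 973 spots whose spread was at least that of the tenth gene it was found for 39.5% of pairs, against 48.9% of the 45 pairs. Without the wide arrays these shares were 3.92%, 20.1% and 28.9%. The 7 genes also all correlated positively with the leading axis of the residuals, the direction along which the arrays differed most over all spots. Their correlations ran from 0.624 (ITGB1) to 0.824 (INHA), while OCA2, CRP and S100A11 had 0.338, -0.0675 and -0.319. Without the wide arrays the 7 genes ran from 0.385 (ITGB1) to 0.742 (LMCD1). On the axis of the BF arrays they ran from 0.00991 (FOLR1) to 0.835 (RPN2).

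Without the wide arrays the 22 correlations ran from 0.00318 to 0.645, and 6 of them were under 50% of their value on all arrays. INHA and FOLR1 had r = 0.00318 without the wide arrays and 0.562 on all arrays, ITGB1 and RPN2 had 0.0122 and 0.422, and ITGB1 and INHA had 0.076 and 0.388. In the BF arrays 18 of the 22 were positive. MYOD1 had r = 0.725 with FOLR1 and 0.657 with CAV1, and LMCD1 had r = 0.636 with RPN2 and 0.598 with INHA. These values were 0.563, 0.593, 0.532 and 0.413 without the wide arrays, and 0.321, 0.209, 0.488 and 0.456 in the BF arrays. LMCD1, OCA2 and S100A11, which carry the consecutive spot numbers 11188, 11189 and 11187, showed little relation to each other, with r = 0.129 for LMCD1 and OCA2, -0.00976 for LMCD1 and S100A11, and -0.266 for OCA2 and S100A11.

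The male and the female pair of a litter were also compared, since they share parents and LMA ranks. The high pigs of these pairs carried opposite dyes, so a correlation in the deposited order turns its sign in dye order. Values for single genes below are in the deposited order. Across all spots, residuals of the arrays of a litter had a median correlation of 0.112 in dye order. The part of the dye in these values was not tested. For LMCD1 the residuals of male and female pairs had Pearson's r = -0.297 over 24 litters (permutation p = 0.158, adjusted p = 0.527 over the 10 genes). Spearman's rho was -0.408 (permutation p = 0.0494), and the deposited ratios had the same sign in 5 of 24 litters. Without the 2 litters farthest out in the female pair, r was -0.31. INHA had r = -0.44 (permutation p = 0.0441, adjusted p = 0.441), rho = -0.481 (permutation p = 0.0183) and r = -0.334 without 2 litters. None of the 10 genes had an adjusted p under 0.05, and for OCA2 r was 0.156 and turned to -0.224 without 2 litters.

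**Figure D4:**
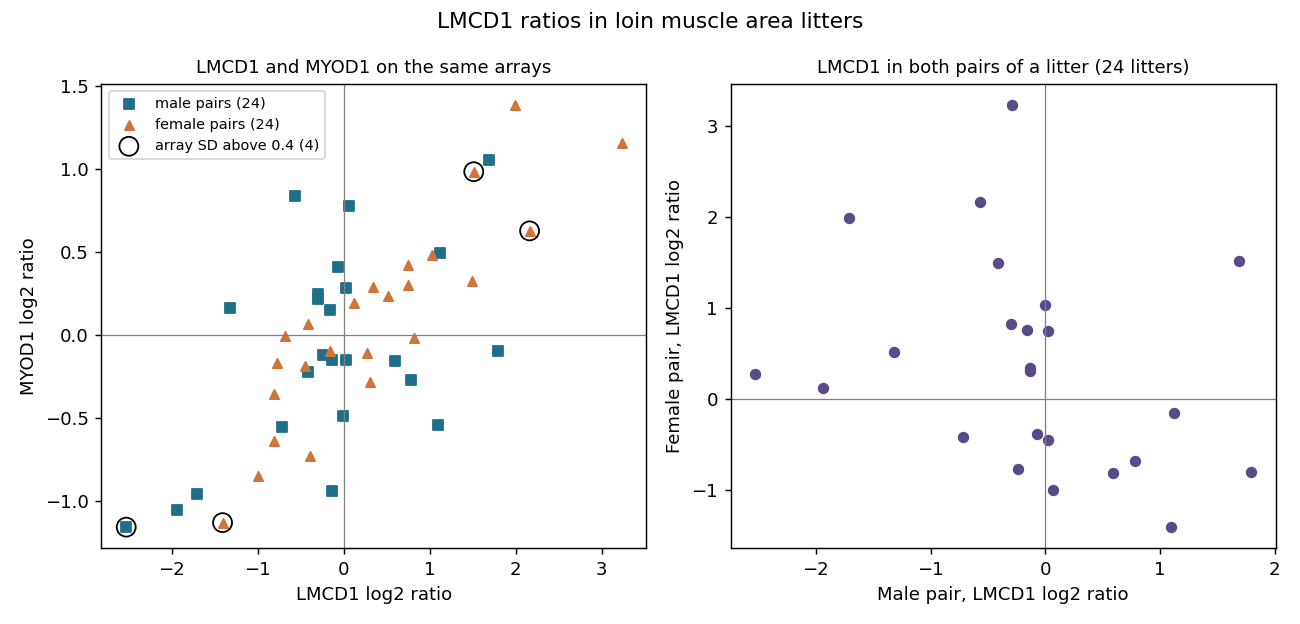
Left, deposited log2 ratios of LMCD1 (horizontal axis) and MYOD1 (vertical axis) on 48 LMA arrays, male pairs as squares and female pairs as triangles, with the 4 arrays of an SD above 0.4 circled; high values of LMCD1 go with high values of MYOD1. Right, the LMCD1 ratio of the male pair (horizontal axis) against that of the female pair (vertical axis) in 24 litters, with the same sign in 5.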

How the data were processed

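Per the methods of the study, the authors took the median intensity of each spot of a pig oligonucleotide array with no subtraction of background. Each array was then normalized by lowess within print tips, followed by a scale normalization over the whole array. The deposited values are log2 ratios between the littermates of an array and were used as they stand. Channel intensities were not analysed here, so precision rests on how many arrays there are. Control spots could not be told apart and were kept.

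The sign of the ratio was turned on arrays whose high pig carried Cy3, and limma 3.58.1 in R 4.3.3 (lmFit, eBayes) was fitted with a dye intercept and LMA columns, litter as a random block (duplicateCorrelation) and Benjamini-Hochberg adjustment over all 20736 spots. The block comes from the litter labels. In dye order, residuals of the arrays of a litter had a median correlation of 0.112, above 0.1 in 13 of 24 litters. The consensus correlation of this fit was 0.102. In the deposited order the correlations within litters would turn their sign, since the high pigs of a litter carried opposite dyes. The fit was tested on simulated data. There the spots were independent and each spot had the same spread on every array, unlike on these arrays. Pigs are separate animals.

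The genes named are the 15 named spots with the smallest p for LMA, 5 each for the sex and the BF contrasts, 3 at each end of the dye term, the 10 of largest spread, and all measured list members. LEPR, GOT1, QDPR, MAOA, UOX, ASIP, the genes of the residual axis and the groups by role were chosen after their values were seen. Members and lists were chosen with earlier results of these data known. Symbols came from the platform annotation, and 178 of 178 identifiers were found in RefSeq. The alternatives are given at the end.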

Additional observations from a re-analysis of the deposited data

How the results depend on the processing

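Under 13 alternatives (other blocks, dye and variance models, scalings, arrays and a filter), LMA high against low passed at 0 spots, with 562 to 1473 at an unadjusted p under 0.05 and smallest adjusted p-values from 0.4156 to 0.9998 in limma. Without the replicate block, and with litter as a fixed replicate block, the count was also 0. Male pairs, female pairs, their difference and LMA minus BF stayed at 0 under 8 alternatives each, and at 0 with an adjusted p under 0.1. Had the deposited ratios run in the order of the dyes, 9504 spots would have passed for LMA, because dye and LMA then change places. Under that reading ARR3 (0.011), KCNA5 (0.04), ELSPBP1 (0.035), SCAMP1 (-0.001) and PI3 (0.014) had the other sign. The count for dye was 5105 of 13824 spots with the third of lowest spread left out, a share of 36.9%, and 6766 to 12225 under the other alternatives. In male pairs alone KCNA5 was at 0.001. Leaving out the wide arrays, an alternative chosen after seeing the data for the spread genes, put S100A11 at -0.065, and leaving out the male pair of litter 56, also chosen then, put MYOD1 at 0.013, S100A11 at -0.019 and FOLR1 at 0.004, all with adjusted p-values of at least 0.8898. By the median absolute deviation the spread of CRP lay above 62.5% of spots, that of RPN2 above 85.2% and that of INHA above 90.1%. Leaving out the female pair of litter 79 for PI3, and the wide arrays or the male pair of litter 56 for the sex means of RPN2 and the genes named for the sex and BF contrasts, was also chosen after seeing the data, and turned no sign. The cause of these shifts was not tested.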

Other observations

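Over all spots, the leading axis of the residuals held 33% of their variance in the LMA arrays, 17.6% without the 4 wide arrays and 16.3% in the BF arrays. INHA, GOT1, QDPR (a reductase of tetrahydrobiopterin), RPN2, CYBA (a subunit of the phagocyte oxidase), MAOA (a monoamine oxidase) and LMCD1 correlated with the axis at 0.824, 0.782, 0.773, 0.74, 0.739, 0.719 and 0.712 over the 48 arrays. Without the wide arrays these were 0.534, 0.672, 0.488, 0.524, 0.33, 0.503 and 0.742, and on the axis of the BF arrays they were 0.791, 0.476, 0.114, 0.835, -0.175, 0.595 and 0.631. Other genes of metabolism did not share this end, with -0.335 for ACADS, -0.408 for ATP5G1 and -0.0686 for UOX. At the other end stood PAQR8 (a membrane progestin receptor), ITGA2B (the platelet integrin), CCR9 (a chemokine receptor of gut-homing T cells) and MC1R (the melanocortin receptor of melanocytes), at -0.712, -0.712, -0.707 and -0.697. These were -0.538, -0.623, -0.673 and -0.428 without the wide arrays, but 0.0963, -0.15, -0.0839 and -0.0258 on the BF axis. Of the 178 named spots, 18 had a correlation above 0.5 and 26 one below -0.5, and 128 had the same sign in the LMA and the BF arrays. These counts are of the named spots alone, with no share over all spots to set them against. Over the named spots, the correlation with the axis and the dye term had a correlation of 0.405, and over all spots one of 0.256. These are descriptions of points that share arrays.

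The 3 scores of largest size belonged to wide arrays. The male pair of litter 56 and the female pair of litter 12 had scores of -83.8 and -65.6, and the female pair of litter 32 had 66.8. The wide array of the female pair of litter 54 scored 6.46, and the female pair of litter 53, which was not wide, scored 45.3. The size of the score had a correlation of 0.9 with the SD of the array. Across spots, the weights of the axis had a correlation of 0.834 with and without the wide arrays, and of 0.625 between the LMA and the BF arrays. The part of array spread in the axis was not tested.

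The LMA litters fell on both sides of the axis. On the axis taken from the BF arrays, which share no pig with them, the LMA litters had a mean score of 1.38 with an SD of 9.96, and 13 of 24 litters were positive. Without the litters of the wide arrays the mean was 2.08 over 20 litters.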
